A study of Mus musculus with 8 samples.

Results

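The ADAMTS metalloproteinases examined here are 10 secreted zinc proteases (Adamts1, Adamts2, Adamts4, Adamts5, Adamts6, Adamts7, Adamts8, Adamts9, Adamts12 and Adamts15) in bone marrow mesenchymal stem cells exposed to extracts of polymer scaffolds. They are 10 of the 19 ADAMTS proteases, and of 26873 genes, in the deposited table. They were chosen by gene symbol, with their measured values across the scaffold extracts and days already known. Their own levels and differences are therefore given as a description. No p-value is printed for a single member, and counts of members past a threshold are read only beside the share of all genes that passed it. Each symbol occurred on 1 line of the table.

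ADAMTS proteases cut proteins of the extracellular matrix. They are made as inactive precursors, a furin-like convertase removes the prodomain, and thrombospondin repeats, which carry O-linked fucose and glucose, hold the enzyme at its substrate. Adamts1, Adamts4, Adamts5, Adamts8, Adamts9 and Adamts15 are proteoglycanases that cleave aggrecan or versican, Adamts2 removes the amino-terminal propeptide of fibrillar procollagens, Adamts7 and Adamts12 cleave cartilage oligomeric matrix protein (COMP), and Adamts6 is tied to fibrillin microfibrils. Tissue inhibitor of metalloproteinases 3 (Timp3) blocks several of them, and in bone and cartilage the family is best known for matrix turnover.

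The cells were labelled wild-type mesenchymal stem cells in osteogenic differentiation, and messenger RNA was sequenced on day 3 and day 7. They were kept in medium with serum that had been soaked with polycaprolactone (PCL) scaffolds, labelled PCL-O, PCL-E, PCL-S or PCL-SE. In the series design the groups are S7, E7, both combined and a blank, and the title calls S7 and E7 peptides. PCL-O was read as the blank by elimination, PCL-S and PCL-SE are called here the extracts with S7, and PCL-O and PCL-E those without it; no peptide dose or sequence was used here. Each of the 8 combinations of extract and day has 1 library. Any contrast of 2 extracts on 1 day therefore has no replicate check. Fitted differences for S7 on 1 day, or between days with or without S7, compare 2 libraries with 2 and pool different extracts. Those for E7 compare 4 libraries with 4, and the interaction of S7 and day uses all 8. An E7 term takes up any constant difference between extracts with and without E7. Standard errors rest on the scatter of all 8 libraries around the fitted values. They therefore largely reflect how far the E7 difference changed between the S7 groups and days, rather than the spread of repeated cultures. The labels mention 3 RNA samples, but say nothing of pooling.

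Library totals ran from 32950326 counts (PCL-S day 7) to 41754124 (PCL-E day 7), so that 3 counts equal between 0.0718 and 0.0910 CPM (counts scaled to library size). The scaling factors from trimmed means of M-values (TMM) were 1.15 and 1.16 on day 7 for PCL-S and PCL-SE, against 0.928 to 1.02 in the other libraries. CPM in the text are scaled to the library total alone, whereas fold changes include TMM. The labels name mouse, whereas 22050 of the genes carry rat Ensembl identifiers, so no sequence or coordinate is given. Of the osteoblast markers, Col1a1 and Runx2 were well measured (Runx2 from 14.9 to 35.2 CPM), whereas Sp7 did not exceed 0.640 CPM, Ibsp 0.969 and Bglap 0.152. Ibsp and Bglap had no count in either library with S7 on day 7. Macrophage and blood markers summed to 0.537 to 0.880 CPM over 5 genes, with Adgre1 at 0 everywhere. The 3 endothelial markers measured summed to 3.25 to 14.3 CPM, with Cdh5 at 0, and the 4 adipocyte markers to 0 to 3.61 CPM.

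Adamts1 had the highest mean per gene length, although Adamts8 stood above it in PCL-O on day 3 (218 against 116 FPKM). Over the 8 libraries the mean of Adamts1 was 122.8 ± 32.8 FPKM (fragments scaled to gene length and library size, SD). Adamts8 followed at 59.5 ± 76.1 and Adamts12 at 41.9 ± 27.3 FPKM. These SD span different extracts and days. Within libraries, Adamts12 lay above Adamts8 wherever S7 was present (25.4 against 4.68 FPKM in PCL-S day 3) and in PCL-O day 7. In the remaining libraries Adamts8 lay above Adamts12. Adamts6 stood at 12.7 ± 5.66 and Adamts5 at 10.1 ± 6.61 FPKM, with Adamts5 the higher only in PCL-SE day 3. Adamts7 (5.48 ± 2.42), Adamts15 (4.82 ± 4.47) and Adamts2 (4.15 ± 1.83 FPKM) changed order between libraries, with Adamts9 at 1.60 ± 0.778 and Adamts4 at 0.263 ± 0.0920 FPKM below them. All 10 members passed the filter on low counts. The ratio of the highest to the lowest CPM among the 8 libraries was 79.6 for Adamts8, 19.6 for Adamts15, 8.59 for Adamts5, 7.71 for Adamts12 and 2.16 for Adamts1.

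**Figure D1:**
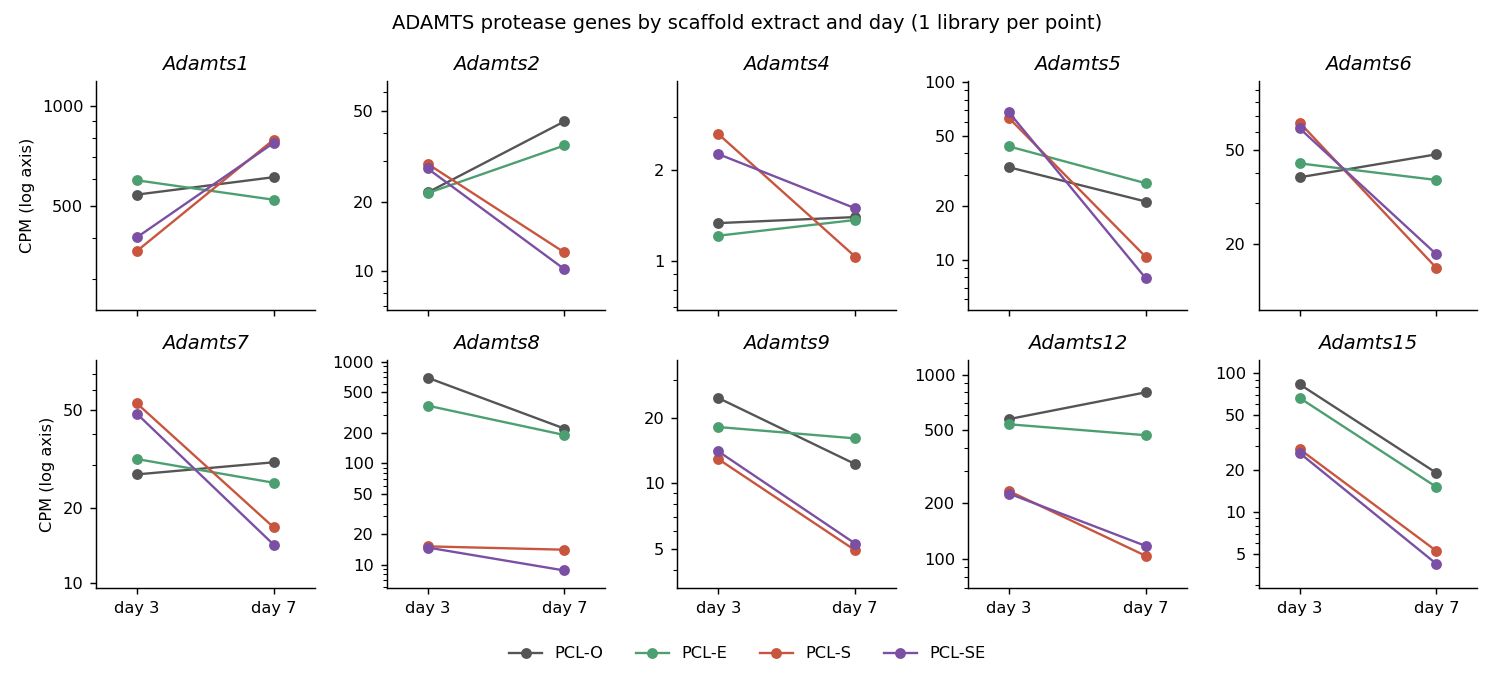
CPM (log axis) of the 10 ADAMTS genes on day 3 and day 7, with 1 point per library and colours for the 4 scaffold extracts; lines join the days of 1 extract. Adamts8 and Adamts12 lie lower with S7 on both days, and the lines of Adamts2, Adamts5, Adamts6 and Adamts7 cross.

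Adamts8, a proteoglycanase first described as an inhibitor of blood vessel growth, had the widest range. On day 3 it stood at 696 CPM in PCL-O, 369 in PCL-E, 14.7 in PCL-SE and 15.1 in PCL-S. On day 7 it stood at 219 CPM in PCL-O, 190 in PCL-E, 8.75 in PCL-SE and 14.0 in PCL-S. Every library with S7 lay below every library without it, by a log2 fold change of -5.08 ± 0.20 (SE) on day 3 and -4.43 ± 0.20 on day 7. Even the lowest of these values rested on 328 counts.

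Adamts15, a proteoglycanase that cleaves versican and aggrecan, was low with S7 and low on day 7. On day 3 it stood at 83.2 CPM in PCL-O, 66.4 in PCL-E, 26.6 in PCL-SE and 28.4 in PCL-S. On day 7 the values were 19.1 CPM in PCL-O, 15.2 in PCL-E, 4.24 in PCL-SE and 5.25 in PCL-S. The groups with and without S7 overlapped on neither day (log2 fold change -1.42 ± 0.10 on day 3 and -2.08 ± 0.11 on day 7), and in each extract day 7 lay below day 3.

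Adamts9, a versican-cleaving protease also needed for secretory traffic and cilia, lay lower in both libraries with S7 than in both without it on each day. It stood at 24.8 CPM in PCL-O, 18.2 in PCL-E, 14.1 in PCL-SE and 12.96 in PCL-S on day 3. The day 7 values were 12.3 CPM in PCL-O, 16.1 in PCL-E, 5.28 in PCL-SE and 4.92 in PCL-S. The S7 difference was -0.66 ± 0.19 (log2) on day 3, which did not pass the threshold, and -1.70 ± 0.20 on day 7. On day 3 it was called by DESeq2 (-0.67) and without the E7 term (-0.66), so passing depended on the fit.

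Adamts5, the main aggrecanase of mouse cartilage, was high with S7 on day 3 and low with S7 on day 7. On day 3 it stood at 33.3 CPM in PCL-O, 43.6 in PCL-E, 67.8 in PCL-SE and 63.0 in PCL-S. On day 7 it stood at 21.3 CPM in PCL-O, 27.0 in PCL-E, 7.89 in PCL-SE and 10.4 in PCL-S. The groups did not overlap on either day, with a log2 fold change for S7 of 0.79 ± 0.16 on day 3 and -1.62 ± 0.18 on day 7.

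Adamts4, the other classical aggrecanase, was the lowest member, with 34 to 108 counts per library. On day 3 it stood at 1.33 CPM in PCL-O, 1.21 in PCL-E, 2.26 in PCL-SE and 2.64 in PCL-S. The day 7 values were 1.40 CPM in PCL-O, 1.37 in PCL-E, 1.49 in PCL-SE and 1.03 in PCL-S. The groups were apart on day 3 (log2 fold change 0.96 ± 0.30) and overlapped on day 7 (-0.35 ± 0.30), and neither difference passed the threshold.

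Adamts1 is a versican- and aggrecan-cleaving protease known for its role in ovulation and inflammation. It alone among the members had a positive fitted S7 difference on day 7. The other 9 were negative, though for Adamts4 the groups overlapped and the difference (-0.35 ± 0.30) was not called. On day 3 Adamts1 stood at 540 CPM in PCL-O, 596 in PCL-E, 402 in PCL-SE and 365 in PCL-S. On day 7 it stood at 609 CPM in PCL-O, 521 in PCL-E, 772 in PCL-SE and 790 in PCL-S. The libraries with S7 were the lowest on day 3 (log2 fold change -0.55 ± 0.12) and the highest on day 7. With TMM the day 7 difference was 0.24 ± 0.12 and did not pass the threshold; scaled to total counts it was 0.47 and without PCL-O day 7 it was 0.44, and both of these were called.

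Adamts2, the procollagen amino-propeptidase, stood on day 3 at 21.96 CPM in PCL-O, 21.8 in PCL-E, 28.0 in PCL-SE and 29.3 in PCL-S. The day 7 values were 44.9 CPM in PCL-O, 35.2 in PCL-E, 10.2 in PCL-SE and 12.0 in PCL-S. It thus lay higher on day 7 than on day 3 without S7, and lower with S7. The S7 difference was 0.40 ± 0.12 (log2) on day 3, not past the threshold, and -2.08 ± 0.12 on day 7, and the groups overlapped on neither day.

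The COMP-cleaving pair did not share 1 pattern. Adamts12 stood at 573 CPM in PCL-O, 537 in PCL-E, 226 in PCL-SE and 234 in PCL-S on day 3, and at 801 in PCL-O, 469 in PCL-E, 118 in PCL-SE and 104 in PCL-S on day 7. It was low with S7 on both days, by -1.25 ± 0.22 (log2) on day 3 and -2.72 ± 0.22 on day 7. Adamts7 stood at 27.4 CPM in PCL-O, 31.6 in PCL-E, 48.2 in PCL-SE and 53.1 in PCL-S on day 3, and at 30.7 in PCL-O, 25.4 in PCL-E, 14.3 in PCL-SE and 16.8 in PCL-S on day 7. It was high with S7 on day 3 (0.79 ± 0.13) and low on day 7 (-1.08 ± 0.14). Neither gene's groups overlapped on either day.

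Adamts6, the protease tied to fibrillin microfibrils and cell adhesion, followed Adamts5 and Adamts7. It stood at 38.4 CPM in PCL-O, 44.0 in PCL-E, 62.0 in PCL-SE and 65.5 in PCL-S on day 3. On day 7 it stood at 48.1 CPM in PCL-O, 37.4 in PCL-E, 18.1 in PCL-SE and 15.9 in PCL-S. The S7 difference was 0.64 ± 0.16 (log2) on day 3 and -1.55 ± 0.16 on day 7, without overlap.

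**Figure D2:**
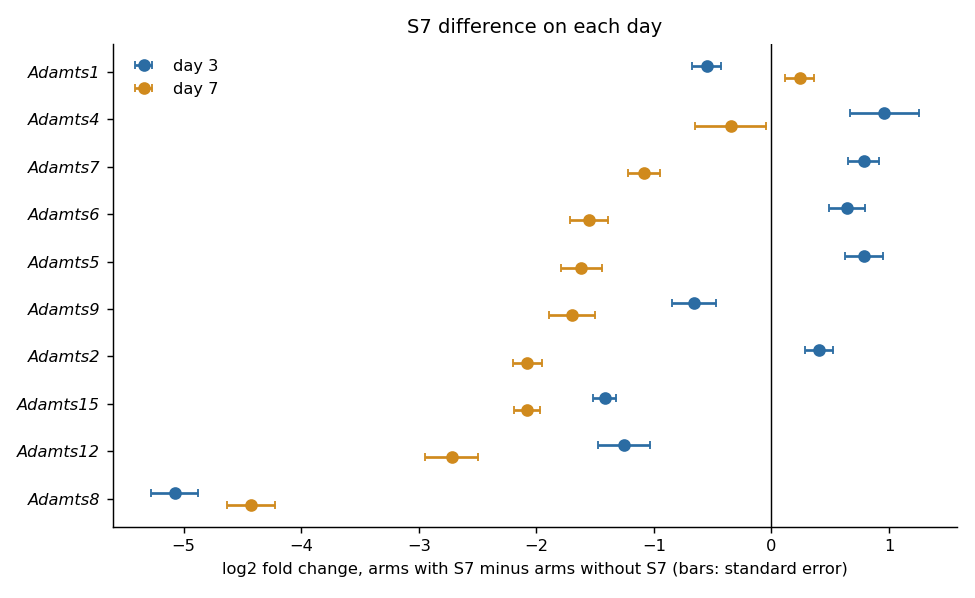
Log2 fold change of each ADAMTS gene between extracts with S7 and those without it (edgeR, 2 libraries against 2), on day 3 (blue) and day 7 (ochre); bars are standard errors. Adamts8 lies far left on both days, and Adamts2, Adamts4, Adamts5, Adamts6 and Adamts7 lie right of 0 on day 3 and left of it on day 7.

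Calls were made at an adjusted p under 0.05 over the 15942 genes tested (edgeR's quasi-likelihood test, Benjamini-Hochberg). With S7 on day 3, 3 members were called higher (Adamts5, Adamts6, Adamts7), where 7.1% of all genes were, and 4 lower (Adamts1, Adamts8, Adamts12, Adamts15), where 6.87% were. With S7 on day 7, 0 members were called higher, where 24.9% of all genes were, and 8 lower, where 26.2% were. The members' median log2 fold change was -0.07 on day 3 and -1.66 on day 7, against 0.00 and -0.03 over all genes. These contrasts were in view when the members were picked, so the counts describe the set and support nothing. Groups with and without S7 did not overlap for 10 of 10 members on day 3, where 67.8% of all genes tested did not, and for 9 of 10 on day 7, where 75.8% did not.

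The 8 calls on day 7 were kept under each of the 13 other fits, including DESeq2, total-count scaling and leaving out each library. On day 3, Adamts8 and Adamts15 kept their call in each of those fits. They were the only members called without PCL-O day 3, PCL-S day 3 or PCL-SE day 3, and 4 were called without PCL-E day 3. Calls over all genes fell in these fits as well. Without a day 7 library, calls of members and of all genes moved the same way. Both were fewer without PCL-S day 7 or PCL-SE day 7 and more without PCL-O day 7 or PCL-E day 7. Fits without 1 library have 2 residual degrees of freedom in place of 3, so a lost call cannot be laid to the library alone. Where a call was lost by leaving out a library, Adamts5 ranged from 0.61 to 0.98 (log2), Adamts6 from 0.50 to 0.80, Adamts7 from 0.58 to 0.79, Adamts1 from -0.65 to -0.45 and Adamts12 from -1.36 to -1.15. Scaling to total counts moved the median of all genes for S7 on day 7 from -0.03 to 0.19, with 5642 genes called higher and 3010 lower, against 3965 and 4172 with TMM.

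Between day 3 and day 7, 3 members were called without S7 and 10 with it. Without S7, 1 member was called higher on day 7 (Adamts2, 0.80 ± 0.12, where 0.671% of all genes were called higher). Adamts8 (-1.39 ± 0.19) and Adamts15 (-2.19 ± 0.10) were called lower, where 0.935% of all genes were. None of these 3 calls was kept without PCL-O day 3 or PCL-E day 3. A fit without 1 library has 2 residual degrees of freedom in place of 3. A lost call therefore cannot tell reliance on that library from the smaller fit. Only Adamts15 was called without PCL-S day 7 or PCL-SE day 7, Adamts8 and Adamts15 were without PCL-S day 3 or PCL-SE day 3, and Adamts12 was called as well without PCL-E day 7. DESeq2 called 4 members, adding Adamts5, and without the E7 term Adamts8 was not called (-1.45). Where the calls were lost by leaving out a library, Adamts2 ranged from 0.69 to 0.91 (log2), Adamts8 from -1.68 to -1.08 and Adamts15 from -2.22 to -2.15.

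With S7, Adamts1 was called higher on day 7 (0.72 ± 0.12, where 24.4% of all genes were called higher) and the other 9 members lower (where 26.4% were). Adamts5 differed most, by -3.14 ± 0.17 (log2), followed by Adamts15 at -2.85 ± 0.11, Adamts6 at -2.21 ± 0.16 and Adamts7 at -2.02 ± 0.13. Adamts8, already near its lowest level on day 3, differed by -0.74 ± 0.21, and that call was lost with total-count scaling (-0.43), without the E7 term, and without PCL-SE day 3, PCL-S day 7 or PCL-SE day 7 (-0.86 to -0.44 over these libraries). The call for Adamts4 was lost without PCL-S day 3, PCL-SE day 3 or PCL-S day 7 (-1.41 to -0.93). The members' median was -1.69 with S7 and -0.11 without it, against -0.03 and 0.01 over all genes. Scaled to total counts, the median of all genes with S7 moved to 0.28, with 6255 genes called higher and 2685 lower, against 3889 and 4201 with TMM.

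The interaction of S7 and day was called lower for 7 members (where 15.5% of all genes were) and higher for Adamts1 (where 13.2% were). Adamts2 differed between days by -2.48 ± 0.17 (log2), Adamts5 by -2.41 ± 0.24, Adamts6 by -2.20 ± 0.22 and Adamts7 by -1.87 ± 0.19. These 4 interactions were called in each of the 13 other fits. For Adamts12 (-1.46 ± 0.32), Adamts9 (-1.04 ± 0.27), Adamts15 (-0.66 ± 0.15) and Adamts1 (0.79 ± 0.17) the call was lost in several fits without 1 library. PCL-E day 3, PCL-SE day 3 and PCL-S day 7 were among these libraries for each gene. Such fits have 2 residual degrees of freedom, so a lost call cannot be laid to the library alone. In those fits where the call was lost, Adamts12 ranged from -1.56 to -1.20, Adamts9 from -1.11 to -0.73, Adamts15 from -0.70 to -0.53 and Adamts1 from 0.69 to 0.90. Adamts8, which was low with S7 on both days, had an interaction of 0.65 ± 0.29 that did not pass. Scaling to total counts moved the median interaction of all genes from -0.03 to 0.21, with 3721 genes called higher and 1750 lower against 2105 and 2473 with TMM. Adamts9 (-0.80) and Adamts15 (-0.42) were not called on that scale.

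No member was called for E7. Over both days, 0 of 10 members and 0% of all genes were called higher, and likewise 0% lower, by edgeR's quasi-likelihood test for E7. At an unadjusted p under 0.05 there were 3 members (Adamts2, Adamts8, Adamts15) and 589 genes, and DESeq2 called 0 members and 1 gene. The fitted E7 differences ran from -0.50 ± 0.14 (log2) for Adamts8 to 0.10 ± 0.12 for Adamts5. In single pairs without a replicate check, the log2 ratio of TMM CPM with 2 added was -0.94 for Adamts8 in PCL-E against PCL-O on day 3 and -0.30 on day 7. For Adamts12 it was -0.12 on day 3 and -0.86 on day 7.

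The extract with both peptides was also set beside that with S7 alone, 1 library a side. Between PCL-SE and PCL-S, the log2 ratio ran from -0.15 (Adamts7) to 0.12 (Adamts1) on day 3, and from -0.57 (Adamts8) to 0.18 (Adamts4) on day 7. The pair PCL-S against PCL-O shares no library with PCL-SE against PCL-E, so S7 can be read without and with E7 from separate libraries. For Adamts8 the ratio was -5.35 without E7 and -4.46 with it on day 3, and -4.03 and -4.30 on day 7. For Adamts12 it was -3.19 without and -2.15 with E7 on day 7, and for Adamts5 -1.14 and -1.69. The 2 CPM added pull the ratios of low genes toward 0.

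In the authors' deposited table, calls from edgeR at p 0.05 and a fold of 1.5 per its header gave 8 of the members down in PCL-S on day 7, where 25.3% of all genes with a call or listed as normal were down. The authors' deposited table listed the same 8 as down in PCL-SE on day 7 (25% of all genes) and only Adamts12 as down in PCL-E (8.35%). On day 3 the authors' deposited table had Adamts4, Adamts5, Adamts6 and Adamts7 up and Adamts8, Adamts9, Adamts12 and Adamts15 down in both PCL-S and PCL-SE, and only Adamts8 down in PCL-E. The share of all genes up in the authors' deposited table on day 3 was 10.5% for PCL-S and 10.2% for PCL-SE, and the share down was 10.8%, 11.1% and, for PCL-E, 2.6%. The header names the reference PCL, which was read here as PCL-O, so the comparisons of a day would share that library.

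The makeup of the family by FPKM differed between extracts. Summed over the 19 ADAMTS proteases, the level on day 3 was 495 FPKM in PCL-O, 396 in PCL-E, 214 in PCL-SE and 209 in PCL-S. On day 7 it was 374 FPKM in PCL-O, 296 in PCL-E, 211 in PCL-SE and 220 in PCL-S. Adamts8 made up 44.0% of that sum in PCL-O on day 3, and 2.24% in PCL-S. Adamts1 made up 34.7% in PCL-O and 37.8% in PCL-E on day 7, against 77.0% in PCL-S and 77.8% in PCL-SE. With S7 the summed level thus lay between 209 and 220 FPKM on both days, and Adamts1 held most of it on day 7.

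**Figure D3:**
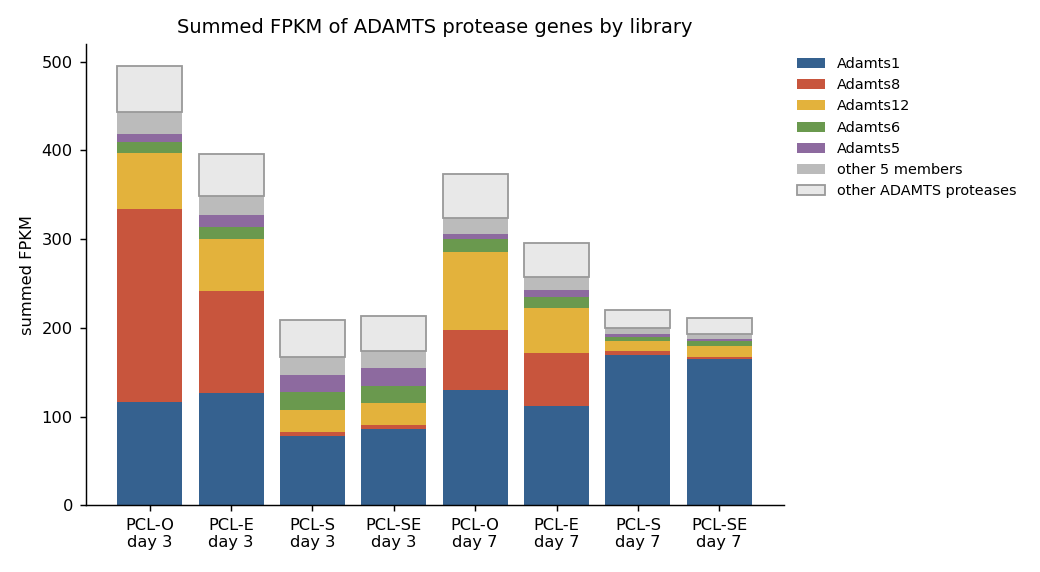
Summed FPKM of the 19 ADAMTS protease genes in each of the 8 libraries (1 bar per library), split into the 5 most abundant members, the other 5 members and the other 9 ADAMTS proteases. The Adamts8 segment is large in PCL-O and PCL-E and hardly visible with S7, and Adamts1 fills most of both S7 bars of day 7.

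Across the 8 libraries the members fell into groups by the correlation of log2 TMM CPM (Pearson, a description over libraries that share treatment and day). Adamts6 and Adamts7 correlated at 0.97, Adamts5 and Adamts7 at 0.97, Adamts9 and Adamts15 at 0.94, and Adamts8 and Adamts12 at 0.89. Pairs across these also correlated, such as Adamts2 with Adamts6 (0.86), Adamts9 with Adamts12 (0.85) and Adamts2 with Adamts12 (0.82). The values therefore do not mark separate groups. Adamts1 was opposed to Adamts4 (-0.92), Adamts7 (-0.82) and Adamts5 (-0.80). For Adamts4, at 1.03 to 2.64 CPM, the 2 CPM added exceeds most values and compresses its differences. In the mouse RefSeq annotation (GRCm38.p6), Adamts1 lies next to Adamts5 and Adamts15 next to Adamts8 among coding genes. The first of these neighbouring pairs ran in opposite directions, and the second correlated at 0.72.

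Among the genes with a mean of at least 5 CPM, those whose pattern over the 8 libraries was most like a member's were Raph1 (r = 0.997) for Adamts8, Atp11b (0.999) for Adamts12, Ofd1 (0.999) for Adamts9 and Klhl7 (0.994) for Adamts15. For Adamts7 they were E2f7 (0.999), Cip2a (0.995) and Col4a1 (0.995), and among genes with a symbol Ckap5 (0.995) came first for Adamts6 and Sts (0.995) for Adamts5. Clec11a (0.993) came first for Adamts2, Ing2 (0.982) for Adamts4 and Btbd19 (0.974) for Adamts1.

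Of the other 9 ADAMTS proteases, 6 had enough counts to be tested. By edgeR 0 were called with S7 on day 3 (2 of 6 at an unadjusted p under 0.05, 0 called by DESeq2). On day 7, 4 were called lower with S7, where 26.2% of all genes tested were. Adamts10, a fibrillin-associated protease, stood at 183 CPM in PCL-O, 144 in PCL-E, 69.0 in PCL-SE and 75.4 in PCL-S on day 7 (log2 fold change -1.40 ± 0.11, edgeR adjusted p = 2.2e-04). Adamts14, a procollagen amino-propeptidase like Adamts2, stood at 18.6 CPM in PCL-O, 12.5 in PCL-E, 2.77 in PCL-SE and 3.16 in PCL-S (-2.60 ± 0.17, edgeR adjusted p = 1.5e-04). Both kept their call without any 1 library. Adamts3, the third propeptidase, was lower by -1.17 ± 0.31 (edgeR adjusted p = 0.0196) at 0.987 to 2.61 CPM, and was not called without PCL-O day 7 (-0.73) or PCL-S day 7 (-0.93). Adamts19 had no count in either library with S7 on day 7, against 1.15 CPM in PCL-O and 0.647 in PCL-E, which is at least 10.5-fold lower by a floor of 3 counts per library, and edgeR did not call it without PCL-S day 7. Adamts16 and Adamts18 had 0 counts in every library, which allows up to 0.0910 CPM, and Adamts13 had at most 6.

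Substrates, partners and regulators were taken from 8 lists, of which 54 genes were measured and 49 tested, the other ADAMTS proteases included. With S7 on day 3, 5 of the 49 were called higher and 8 lower, where 7.1% and 6.87% of all genes tested were. With S7 on day 7, 4 were higher and 36 lower, where 24.9% and 26.2% of all genes tested were. The day 7 median was -1.40 against -0.03 over all genes. The counts of the single lists below are to be read beside the same shares. Of the day 7 calls, 29 of 40 were kept without any 1 library, and of the day 3 calls 5 of 13 were (Vcan, Col5a1, Thbs1, Tll1, Pcsk6). Most were lost on day 3 without PCL-O day 3 (8 lost), PCL-S day 3 (7) or PCL-E day 3 (7). The lists were made with results of these data known and are no independent evidence of a direction.

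Of the 10 proteoglycan and hyaluronan genes tested, 1 was higher and 1 lower with S7 on day 3, and 1 higher and 6 lower on day 7. Versican (Vcan), a substrate of Adamts1, Adamts5, Adamts9 and Adamts15, rose with S7 on day 3 to 1013 ± 19.8 from 463 ± 41.7 CPM (mean ± SD over 2 libraries a group; log2 fold change 1.15 ± 0.09, edgeR adjusted p = 0.00129). On day 7 it was lower with S7, at 347 ± 12.3 against 495 ± 26.5 CPM (-0.74 ± 0.09, edgeR adjusted p = 8.1e-04). Its order with S7 thus turned between days like that of Adamts5, Adamts6 and Adamts7 (interaction -1.88 ± 0.12, edgeR adjusted p = 9.6e-04). Aggrecan (Acan) was lower on day 7 (-1.39 ± 0.43, edgeR adjusted p = 0.0354), with 88.5 CPM in PCL-O, 242 in PCL-E, 77.9 in PCL-SE and 64.2 in PCL-S. That difference rested on PCL-E, without which it was -0.48 and not called, and the call was also lost without PCL-S day 3, PCL-SE day 3, PCL-S day 7 or PCL-SE day 7, with DESeq2 and with total-count scaling (-1.45 to -1.18). The hyaluronan synthase Has2 (-1.81 ± 0.12) and the hyaluronan-binding Tnfaip6 (-2.66 ± 0.31) were lower on day 7, and the hyaluronan receptor Cd44 was higher (0.75 ± 0.09).

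All 9 genes tested from the procollagen list, which holds collagen chains and genes of procollagen processing, were lower with S7 on day 7. The call for Pcolce was lost without PCL-SE day 7 (-0.52). Col1a1, the main collagen of bone, stood at 24758 CPM in PCL-O, 15347 in PCL-E, 5273 in PCL-SE and 5659 in PCL-S (log2 fold change -2.09 ± 0.19, edgeR adjusted p = 4.3e-04). Col3a1 was lower by -2.03 ± 0.13 and the procollagen C-proteinase Bmp1 by -1.65 ± 0.14. On day 3, Col5a1 (1.13 ± 0.10) and Col5a2 (0.52 ± 0.08) were higher with S7, and Col2a1 (-2.49 ± 0.40) and the proteinase Tll1 (-1.63 ± 0.15) were lower. Of these day 3 calls, Col5a2 was lost without any 1 of the 4 day 3 libraries (0.49 to 0.54) and Col2a1 without PCL-O day 3 (-2.30) or PCL-E day 3 (-2.70). The interaction was called lower for 8 of the 9.

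All 6 genes of the COMP and fibrillin list were lower with S7 on day 7, and 1 (Thbs1, -1.01 ± 0.08) was on day 3. Comp itself stood at 0.750 ± 0.269 CPM with S7 against 2.90 ± 0.578 without it on day 7 (n = 2 libraries each; -2.18 ± 0.29, edgeR adjusted p = 0.00127), a low level beside that of Adamts12. The fibrillins Fbn1 (-2.94 ± 0.22) and Fbn2 (-3.75 ± 0.43) were lower too, and fibronectin (Fn1) was lower by -1.57 ± 0.13.

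Among 7 inhibitors and clearance genes, 2 were higher and 1 lower on day 3, and 1 higher and 4 lower on day 7. Timp3, the main endogenous inhibitor of ADAMTS aggrecanases, stood at 168 CPM in PCL-O, 129 in PCL-E, 59.1 in PCL-SE and 60.8 in PCL-S on day 3. The day 7 values were 160 CPM in PCL-O, 79.4 in PCL-E, 5.73 in PCL-SE and 7.10 in PCL-S. It was lower with S7 by -1.27 ± 0.22 on day 3 (edgeR adjusted p = 0.0138) and by -4.40 ± 0.24 on day 7 (edgeR adjusted p = 1.3e-04), the latter kept without any 1 library. Timp4 was higher with S7 at a low level, with 5.26 CPM in PCL-SE and 5.95 in PCL-S on day 3 against 0.231 in PCL-E and 0.116 in PCL-O (4.99 ± 0.70, edgeR adjusted p = 0.00513). On day 3 both calls were lost without PCL-O day 3 (Timp3 -1.32, Timp4 4.41) or PCL-S day 3 (-0.99 and 4.96), and that of Timp3 also without PCL-E day 3 (-1.21). Lrp1, the receptor that takes up Adamts4 and Adamts5, was lower on day 7 (-1.12 ± 0.17), and Timp2 was not called (-0.01 ± 0.11).

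Of the 4 prodomain convertases, Pcsk5 and Pcsk6 were lower with S7 on both days, Pcsk7 was higher on day 7, and furin (Furin) was called on neither. Pcsk5 differed by -1.87 ± 0.29 on day 3 and -2.67 ± 0.29 on day 7, and Pcsk6 by -1.66 ± 0.11 and -1.67 ± 0.11. The call for Pcsk5 on day 3 was lost without PCL-O day 3 (-1.78), PCL-S day 3 (-1.54) or PCL-E day 3 (-1.96). Pcsk7 differed by 0.30 ± 0.10 on day 7 (edgeR adjusted p = 0.0413), a call lost with DESeq2 (0.30) and without any 1 library other than PCL-O day 7 (0.19 to 0.41). Furin differed by -0.08 ± 0.10 and -0.04 ± 0.10. Pofut2 and B3glct, which add fucose and glucose to thrombospondin repeats, were lower on day 7 by -0.43 ± 0.07 and -1.11 ± 0.10; with total-count scaling Pofut2 was not called (-0.21). Of the 5 ADAMTS-like proteins, which lack the protease domain, Adamtsl2, Adamtsl3 and Adamtsl4 were lower on day 7 and Adamtsl5 was higher (0.50 ± 0.11). The call for Adamtsl2 was lost without PCL-S day 7 (-3.12) and that for Adamtsl5 without PCL-SE day 7 (0.46). Without S7, day 7 against day 3 gave 4 calls in all 8 lists (Hapln1, Has2 and Timp1 higher, Pcsk6 lower), and these were all lost without PCL-O day 3 or PCL-E day 3. E7 gave 0 by edgeR and by DESeq2, with 6 of 49 at an unadjusted p under 0.05 in edgeR.

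**Figure D4:**
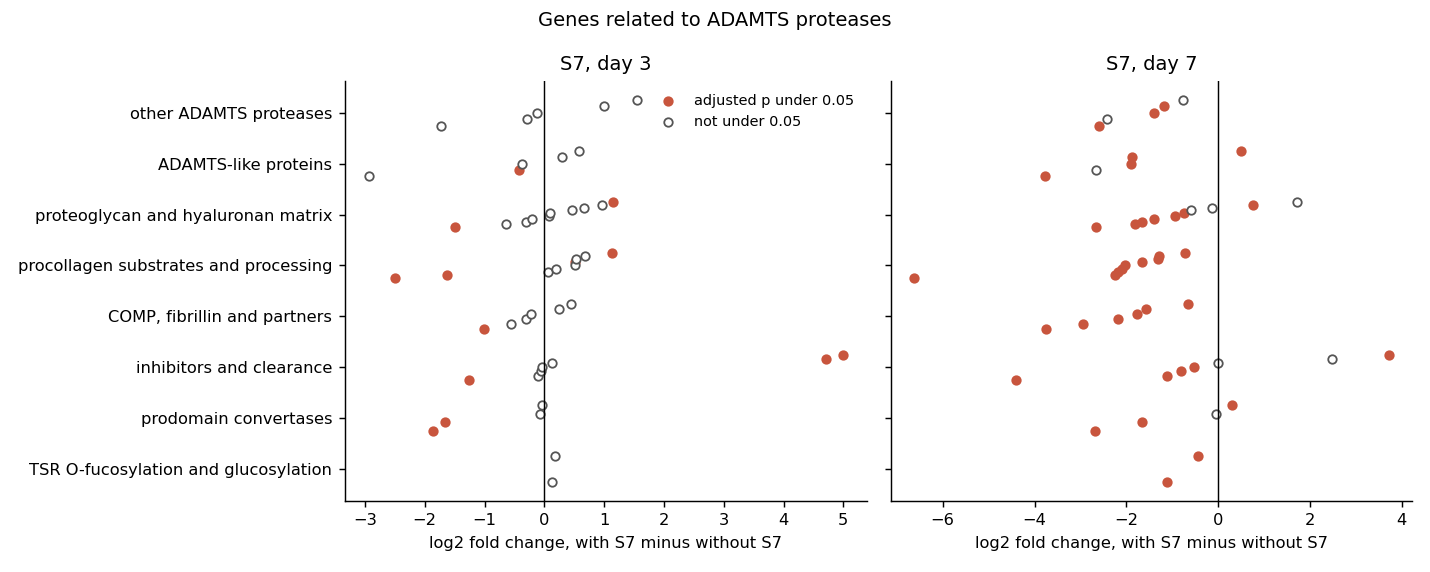
Log2 fold change of each tested list gene between extracts with and without S7 on day 3 (left) and day 7 (right), by list; filled points have an edgeR adjusted p under 0.05. Adamts19, with no count in either S7 library on day 7, is left out of both panels. Points scatter around 0 on day 3 and lie mostly left of 0 on day 7.

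Summed levels of cell type markers also differed between the libraries with and without S7, in both directions. The 3 smooth muscle markers summed to 9947 to 10230 CPM without S7 and 6907 to 6952 with it on day 3, and to 7546 to 9129 against 1986 to 2250 on day 7. Most of this was Acta2, with a mean of 6255 CPM against 331 for Cnn1 and 282 for Myh11. On day 3 edgeR called only Acta2 lower with S7, and the median log2 fold change of the 3 was -0.01. On day 7 all 3 were called lower. The 4 chondrocyte markers summed to 280 to 509 CPM without S7 and 173 to 186 with it on day 3, and to 314 to 343 against 85.9 to 100.02 on day 7. Of these, edgeR called only Col2a1 lower with S7 on day 3, and all 4 on day 7. The 4 skeletal muscle markers summed to 46.7 to 108 CPM without S7 against 3.25 to 3.52 with it on day 3, and to 14.5 to 57.7 against 2.35 to 2.88 on day 7. Nearly all of that sum without S7 was Myh2 (107 CPM in PCL-O on day 3), no other of the 4 exceeded 1.55 CPM, and Des lay higher with S7 on day 7 (1.13 against 0.108 CPM on average).

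Other marker sums lay higher with S7 on day 3. The endothelial sum was 12.8 to 14.3 CPM with S7 against 5.42 to 6.37 without it on day 3, nearly all of it Tek, and the ranges overlapped on day 7. The adipocyte sum was 0.293 to 0.470 against 0.0579 to 0.115 CPM on day 3 and 2.21 to 3.61 against 0 to 0.455 on day 7. On day 3 the sums without S7 lay near the floor of 3 counts (0.0869 CPM in PCL-O). Fabp4, at up to 3.55 CPM, was the only 1 of the 4 tested, and edgeR called it higher with S7 on day 7 alone. Adipoq and Plin1 never exceeded 2 counts, and Lep had none with S7 on day 7. The 4 mesenchymal stromal markers summed to 1209 to 1232 against 894 to 1055 CPM on day 3, and to 945 to 987 against 707 to 862 on day 7. These markers did not move together. With S7, edgeR called Nt5e and Thy1 higher on day 3, and on day 7 Cd44 higher but Thy1 and Eng lower. The sums are without TMM, whose day 7 factors were 1.15 and 1.16 with S7 and 0.955 and 1.02 without it. The 6 osteoblast markers, nearly all Col1a1 by CPM, summed to 29993 to 32424 CPM with S7 against 18933 to 20432 on day 3, and to 5310 to 5691 against 15381 to 24792 on day 7. Alpl, the alkaline phosphatase of bone-forming cells, stood at 13.2 CPM in PCL-O, 8.60 in PCL-E, 1.33 in PCL-SE and 0.698 in PCL-S on day 7. Of the 5 osteoblast markers tested, edgeR called Alpl, Ibsp and Col1a1 lower with S7 on day 7. The other 2, Runx2 among them, were not called. On day 3 only Runx2 was called, as higher with S7. The part of these markers in the ADAMTS differences was not tested, and in bulk RNA fewer cells that express a gene and less RNA per cell cannot be told apart.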

How the data were processed

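The deposited table holds raw counts per gene and library and, scaled by the authors per the file headers, FPKM values; the sources used here name no aligner or counting tool, and the submitters' processing notes list mm10. Of its features, 22050 have rat Ensembl identifiers and 4823 are new genes, and 10 broken lines were left out. The authors' own edgeR calls, per the file headers, were used only to count members.

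Counts of all 8 libraries were filtered with filterByExpr, scaled with TMM and fitted in edgeR 4.0.16 (R 4.3.3) with S7, day, their interaction and E7 as terms. This left 15942 genes, 3 residual degrees of freedom and a biological coefficient of variation of 0.137. Quasi-likelihood tests were adjusted by Benjamini-Hochberg over all genes tested. Standard errors come from the fit's information matrix and quasi-likelihood dispersion. The fit was also run on simulated data in which few genes changed, and only with S7 on day 7. In the real data 8137 genes were called for that contrast, so the simulation does not cover this setting. FPKM served only for levels between genes, which depend on the gene models used. Single pairs are log2 ratios of TMM CPM with 2 added; the pair PCL-SE against PCL-E was chosen after seeing the data.

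The members and the gene lists were chosen with earlier results of these data known; of 57 listed genes, Adamtsl1, Thsd4 and Pcolce2 found no match. Named genes are the members, list genes and, per member, up to 3 genes of highest Pearson correlation. Alternatives were DESeq2 1.42.0, its size factors in edgeR, total-count scaling, no low-count filter, no E7 term, leaving out each library, and for pairs 0.5 CPM added; applying them to single list genes was chosen after seeing the data. Where 1 library is left out, the lone one is assumed to vary like the others. Floors cover counting error only. Figures used Python 3.11.15, pandas 2.3.3, scipy 1.17.1 and matplotlib 3.10.9.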

Additional observations from a re-analysis of the deposited data

Results flagged for a closer look

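For 8 of the 10 members the S7 effect differed between day 3 and day 7 by the interaction term of edgeR's quasi-likelihood test, adjusted over all 15942 genes, of which 13.2% were called higher and 15.5% lower. The S7 effect on day 7 minus that on day 3 was -2.48 (log2) for Adamts2, -2.41 for Adamts5, -2.20 for Adamts6 and -1.87 for Adamts7, the 4 genes that lay above the libraries without S7 on day 3 and below them on day 7. It was -1.46 for Adamts12, -1.04 for Adamts9 and -0.66 for Adamts15, which were lower with S7 on both days and more so on day 7. Adamts1 went the other way, at 0.79. The members were selected on these values, so these differences describe the set and are no independent evidence.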

How the results depend on the processing

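No result changed its direction among those called. Of 770 refitted fold changes of members, 689 kept their side of the threshold, 68 lost it and 13 gained it. Of 1586 refits of called list genes, added after seeing the data, 1442 kept the call and 144 lost it. Of 200 alternative pair ratios, 31 moved beyond their 95% counting interval. Leaving out each library in turn gave 2 to 9 members called for S7 on day 3 (7 with all libraries), 0 to 4 for day 7 against day 3 without S7 (3) and 4 to 8 for the interaction (8); list genes called ran from 5 to 24 (13), 0 to 16 (4) and 17 to 32 (28). The highest counts came without PCL-O day 7 or PCL-E day 7. The lowest came without a day 3 library, and for members in the interaction also without PCL-S day 7. DESeq2 called 10 list genes for day 7 against day 3 without S7, against 4. Over all genes, S7 on day 3 gave 2227 calls, 257 without PCL-S day 3 and 3847 without PCL-O day 7. S7 on day 7 gave 8137, and 5003 without PCL-S day 7. Day 7 against day 3 without S7 gave 256, 773 by DESeq2, 335 without the E7 term, 370 without a filter, and 0 to 1347 by leaving out a library. With S7 it gave 8090, and 4479 without PCL-SE day 3. The interaction gave 4578, and 1537 without PCL-SE day 3. No paired analysis was possible because each extract and day has 1 library and the labels carry no replicate numbers. Depth was a limit for Adamts4, with 34 to 108 counts, and for the untested Adamts13, Adamts16 and Adamts18.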
